A study of Mus musculus with 2 samples.

Results

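Primitive cells are 1 of the endothelial clusters of the postnatal mouse retina, labelled Primordial in the source data that accompany the study. They were chosen by that label alone, without the cells labelled Primordial-Proliferative, which are called Proliferative here. They numbered 155 of 1560 labelled cells at postnatal day 6 (P6), 9.94% (exact binomial 95% interval 8.50 to 11.5), and 36 of 438 labelled cells at P15, 8.22% (5.82 to 11.2), so 191 of 1998 in all. Both libraries came from wild-type C57BL/6 retinas, digested and sorted for CD31+ CD45- cells, which keeps endothelium and removes blood cells, and each age was a single droplet library. The number of pups in each is not given, age cannot be told apart from library, and the copy of the label sheet used here held only part of the P15 cells. All values below are therefore descriptions with no test between conditions, and the intervals beside them cover counting error only. Because the clusters were built from these same transcripts, a difference between Primitive cells and the rest describes the cluster and is not independent evidence for it.

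In the growing retina, vessels spread from the optic nerve towards the periphery as a plexus that is led by tip cells, extended by dividing cells behind the front and then remodelled into arteries, veins and capillaries. Shear stress, Notch, bone morphogenetic protein (BMP) and vascular endothelial growth factor (VEGF) signals steer that remodelling, while norrin and Wnt signals set up the blood-retina barrier. A cell that grows and divides makes many ribosomes, nucleotides and mitochondrial proteins, and an endothelial cell that specialises adds junction, carrier and matrix genes. Lists of genes for each of these programmes were used to describe the Primitive cells.

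The 155 Primitive cells at P6 held a median of 5148 unique molecular identifiers (UMIs, 1 for each captured transcript), from 3284 to 16916, and 941787 UMIs in all. The 36 at P15 held a median of 2704, from 1872 to 8972, and 123895 in all. Medians of the other clusters ran from 3204 to 7953.5 UMIs at P6, so depth did not set Primitive cells apart at that age, whereas at P15 only Capillary cells had a lower median, 2268.5. The number of different genes in a cell was low for its depth. After every cell was thinned to 3000 UMIs, the 155 Primitive cells at P6 showed a median of 1344 genes (1024 to 1536), against medians of 1502 to 1639.5 in the other clusters, and the unthinned median was 1893 genes. At P15 only 15 of the 36 cells reached 3000 UMIs, and their median was 1432 genes against 1596 or more elsewhere. No barcode of a Primitive cell was among the 7 that occur in both libraries.

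The 4 genes that mark the label were at their highest summed level in Primitive cells at P6, and for 2 of them, Lgals1 and Mif, the counting interval lay clear of every other cluster's. Lgals1 encodes galectin-1, a secreted lectin that binds glycans on cell surfaces and matrix. Levels are UMIs per 1000000 summed over a cluster's cells, written CPM, with exact Poisson 95% intervals in parentheses. Lgals1 gave 158 UMIs in 70 of 155 Primitive cells at P6, 168 CPM (143 to 196), and Tip cells came next at 98.3 (80.8 to 118). Per cell the level ran from 0 to 11.8 UMIs per 10000 with a median of 0, so 85 of the cells held none. Mif encodes macrophage migration inhibitory factor, a secreted cytokine with tautomerase activity, and was the most evenly spread marker. It was detected in 142 of 155 cells (91.6%) at 815 CPM (759 to 875), beside 526 (491 to 561) in Proliferative cells and 350 (320 to 383) in Stalk cells. Per cell it ran from 0 to 35.5 UMIs per 10000, with a median of 7.53. The gene lies on chromosome 10 (mm10, 75859353 to 75860240, minus strand).

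Phgdh, which codes for the first enzyme of serine synthesis, and Rac1, a small GTPase of lamellipodia, did not separate Primitive from Proliferative cells. Phgdh gave 52 UMIs in 41 Primitive cells, 55.2 CPM (41.2 to 72.4), against 52.0 (41.6 to 64.1) in Proliferative cells, whose intervals overlap almost wholly. Rac1 gave 244 (214 to 278) against 217 (195 to 240). The other 7 clusters lay at 22.96 or less for Phgdh, with 0 of 40 Arterial cells holding a UMI, and at 194 or less for Rac1. At P15 the label rested on little of this. Lgals1 gave 2 UMIs and Phgdh 0 in the 36 cells, a count that allows up to 24.2 CPM, while Mif was at 266 (183 to 374) against 312 (216 to 435) in Proliferative and 257 (201 to 323) in Tip cells. Rac1 was at 186 (118 to 279) in Primitive cells at P15. On cells thinned to 3000 UMIs the P15 ratio of Mif to the rest was 0.718, against 1.27 unthinned. The 4 markers therefore described the P6 cluster and did not single out the P15 one. The study itself names high Cdc42 and Rac1 for Primitive cells. Cdc42 was at 1049 CPM (877 to 1246) in them at P15, against 841 (738 to 955) in Tip cells, and these intervals overlap. At P6 it was at 824 (767 to 884) in Primitive and 838 (786 to 894) in Tip cells.

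**Figure D1:**
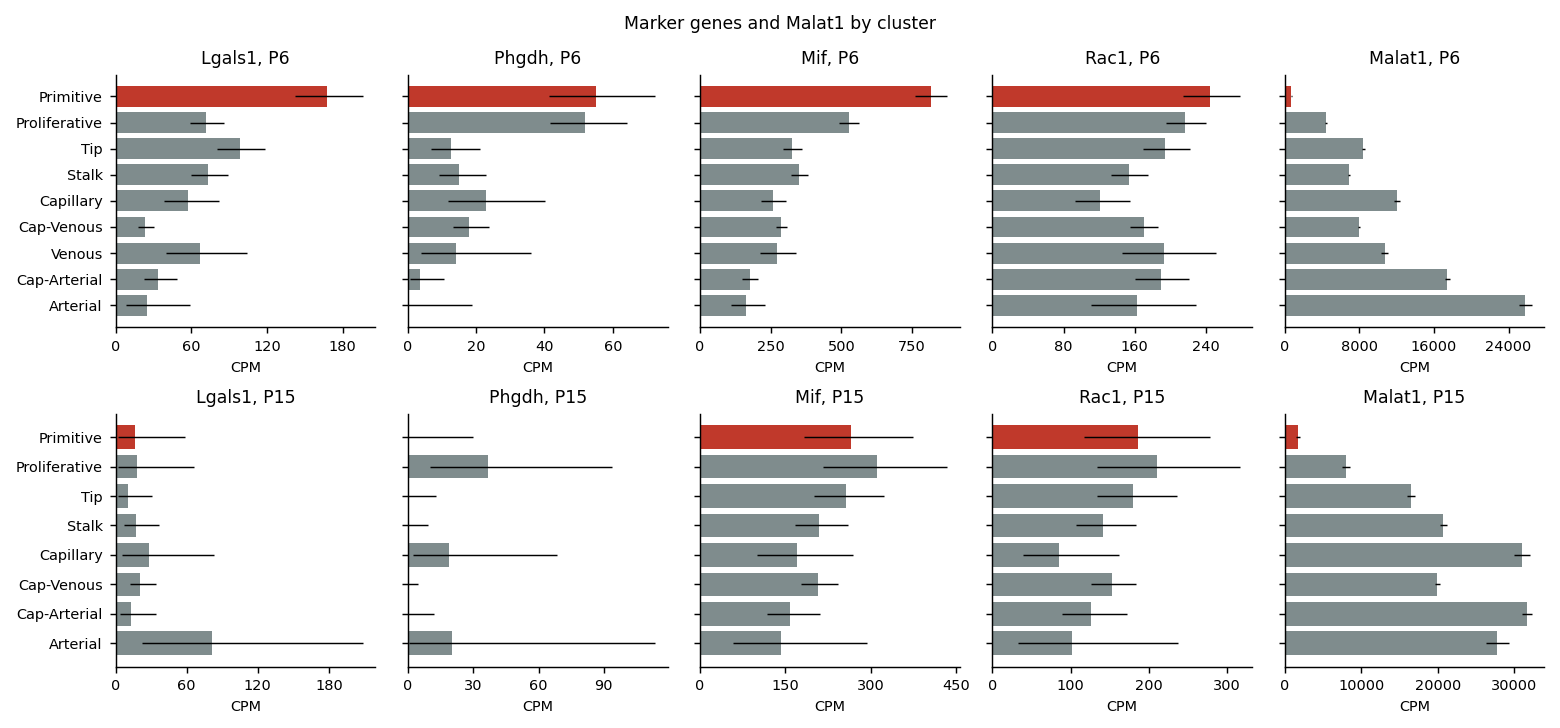
Summed level of the 4 marker genes and of Malat1 in each cluster at P6 (upper row) and P15 (lower row), in CPM of the cluster; bars are summed levels, lines are exact Poisson 95% intervals, and Venous cells at P15 are not drawn because only 2 were labelled. Primitive cells (red) have the longest Lgals1 and Mif bars at P6 and the shortest Malat1 bar at both ages.

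Against all other labelled cells of the P6 library, 5871 genes had at least 200 UMIs and were compared as a ratio of CPM. In Primitive cells 356 of them (6.06%) were at least 1.5-fold higher and 2015 (34.3%) at least 1.5-fold lower, with a median ratio of 0.820. This balance depended on the scaling. With trimmed-mean (TMM) factors every P6 ratio was 1.23 times larger, the median was 1.005, and the counts were 1068 (18.2%) higher and 1347 (22.9%) lower. The log2 median moved from -0.29 to 0.01. Ratios below are on plain totals, and a list is read against these shares of all genes.

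Genes of DNA replication and chromosome segregation stood at the head of the P6 list beside the markers. The uracil-DNA glycosylase Ung had 48.8 against 19.5 CPM (ratio 2.50, 1.76 to 3.48), and Tk1, the thymidine kinase of the salvage pathway, 173 against 72.7 (2.38, 1.99 to 2.83). Dctpp1, which clears abnormal dCTP, stood at 2.28 (1.93 to 2.69) and Chaf1b, a histone chaperone subunit at the replication fork, at 2.26 (1.63 to 3.09). Cenpm, a centromere protein, had a ratio of 2.39 (1.76 to 3.22). Outside the cell cycle the head of the list held S100a6, a calcium-binding protein, at 186 against 76.4 (2.43, 2.05 to 2.88) and Gchfr, the feedback regulator of GTP cyclohydrolase, at 76.5 against 32.2 (2.38, 1.81 to 3.09).

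The 12 highest ratios also held Phgdh at 2.54 (1.83 to 3.47), Ube2c at 2.50 (2.20 to 2.85) and Cenpw at 2.48 (2.04 to 2.998). The promoters of these 3 genes are shown to compare both mitotic genes with the metabolic marker for 2 elements known from promoters of late cell cycle genes, the CCAAT box and the CHR (cell cycle genes homology region). Each run is the 250 bases before the RefSeq transcript start in GRCm38.p6, read 5′ to 3′ on the strand of the gene, with CCAAT boxes (CCAAT, or ATTGG on the other strand) and CHR letters (TTTGAA or TTCGAA, on either strand) in capitals.
Ube2c (ubiquitin-conjugating enzyme of the anaphase-promoting complex, chr2:164769679-164769928, plus strand): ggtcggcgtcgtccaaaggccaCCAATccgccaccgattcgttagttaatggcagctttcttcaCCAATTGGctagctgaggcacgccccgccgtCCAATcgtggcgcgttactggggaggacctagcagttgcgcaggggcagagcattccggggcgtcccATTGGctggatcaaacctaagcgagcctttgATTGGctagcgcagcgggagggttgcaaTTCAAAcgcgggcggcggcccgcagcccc
Cenpw (inner kinetochore protein, chr10:30200541-30200790, minus strand): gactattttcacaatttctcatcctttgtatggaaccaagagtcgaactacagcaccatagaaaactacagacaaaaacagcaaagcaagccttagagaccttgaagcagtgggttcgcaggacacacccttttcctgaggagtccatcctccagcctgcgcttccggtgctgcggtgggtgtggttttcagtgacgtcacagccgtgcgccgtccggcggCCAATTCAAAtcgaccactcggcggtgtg
Phgdh (chr3:98339970-98340219, minus strand): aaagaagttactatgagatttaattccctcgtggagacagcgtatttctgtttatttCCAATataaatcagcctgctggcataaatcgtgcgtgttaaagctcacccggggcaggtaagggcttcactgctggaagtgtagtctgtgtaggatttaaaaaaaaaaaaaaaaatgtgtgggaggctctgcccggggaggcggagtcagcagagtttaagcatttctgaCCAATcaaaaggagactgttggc
Ube2c holds a CHR match 29 bases before the start and CCAAT matches at 228, 186, 183, 155, 88 and 57 bases, of which the pair at 186 and 183 overlap. In Cenpw the CCAAT match at 29 and the CHR match at 25 share 1 base, and Phgdh holds CCAAT matches at 193 and 23 and no CHR match. Cenpm, not printed, holds CCAAT matches at 172 and 131 and a CHR match at 83. Both elements together occur in 7.001% of the 27025 genes with an entry and in 5.87% of the 4516 matched P6 genes. They occur in 25 of the 238 matched genes that were at least 1.5-fold higher in Primitive cells (10.5%), in 5.05% of the 1545 lower ones, and in 14 of 39 matched genes of the G2 and mitosis list (35.9%). A match says only that the letters are there.

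The 10 lowest ratios were of genes at 0 to 2 UMIs in Primitive cells, and for several the level in the rest came mainly from arterial cells. Mgp, a matrix inhibitor of calcification made by arteries, gave 0 UMIs against 46.1 CPM in the rest, and Aqp1, a water channel, 0 against 33.3, where 0 counts allow up to 3.19 CPM. Mgp was at 1741 CPM in Arterial cells but at 0 in Venous cells and 1.91 to 5.38 in Capillary, Tip, Stalk and Proliferative cells. Eln, which encodes elastin, gave 1 UMI (ratio 0.0325, 0.000821 to 0.183). Nebl, a nebulin-family actin-binding protein, and Milr1 were at 0 UMIs as well. Stmn2, a neuronal tubulin-binding protein, gave 1 UMI against 50.3 CPM in the rest, but it too was at 1179 in Arterial cells and 0.597 to 1.91 in Proliferative, Tip, Cap-Venous, Stalk and Capillary cells. The remaining 4 of the 10 lowest, C530043K16Rik, A530041M06Rik, Gm37024 and Gm32036, gave 2 UMIs or fewer each against 25.4 to 71.0 CPM.

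Transcripts that stay in the nucleus were scarce in Primitive cells at both ages. The genes concerned were chosen after their values were seen, apart from those the naming rule gave. Malat1, a long non-coding RNA of nuclear speckles on chromosome 19 (5795690 to 5802672, minus strand), summed to 711 CPM in P6 Primitive cells against 8830.3 in the rest (ratio 0.0806, 0.0746 to 0.0869). Of 155 cells 61 held none, and the level per cell ran from 0 through a median of 1.85 to 48.4 UMIs per 10000. Medians of the other clusters ran from 39.2 in Proliferative to 231 in Arterial cells, and no Primitive cell reached the median of the rest, 73.6. The groups still overlapped at the low end, since 31 of 1405 other cells lay at or below the Primitive median, 20 of them Stalk and 8 Proliferative.

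The P15 library also gave a low ratio for Malat1. It summed to 1768 CPM in Primitive cells against 21518 in the rest (0.0821, 0.0716 to 0.0938), with 15 of 36 cells at 0, a median of 3.35 and a highest value of 89.2 UMIs per 10000. With each cell weighted equally the ratio was 0.0514 at P6 and 0.0396 at P15, and with the study's cell filter it was 0.0533 at P6. With labels from nearest labelled neighbours it was 0.365 at P15, where every unlabelled barcode was taken in, including any that the study had removed. Kcnq1ot1, an antisense RNA of an imprinted domain, stood at 0.171 (0.110 to 0.254) at P6 and Rn7sk, the scaffold of an elongation inhibitor complex, at 0.314 (0.202 to 0.468). Neat1, the scaffold of paraspeckles, stood at 0.284 (0.113 to 0.594). The list as a whole was at 0.0854 (0.0793 to 0.0918) at P6, where 5 of 5 compared members were at least 1.5-fold lower, and at 0.0819 (0.0715 to 0.0934) with 4 of 4 at P15. These sums mostly restate Malat1, which gave 670 of the 735 Primitive UMIs of the list at P6 and 219 of 224 at P15. The median ratio of the compared members was 0.199 at P6 and 0.0762 at P15. The counts alone do not tell cells with less nuclear RNA from droplets with a damaged nucleus or more free RNA. Their part in these values, and in the ribosomal and vessel-type values given further on, was not tested. Strand was not stated for the counting, so reads of Kcnq1ot1 and of its host gene cannot be told apart.

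Xist, the RNA that coats the inactive X chromosome, gave a similar picture in counts of cells at P6. It had a UMI in 7 of 155 Primitive cells (4.52%, 1.83 to 9.08) against 272 of 1405 others (19.4%, 17.3 to 21.5) at that age. At P15 it had a UMI in 0 of 36 (0 to 9.74%) against 23 of 402 (5.72%, 3.66 to 8.46), and these intervals overlap. Transcripts of 4 Y-linked genes were found in 23 P6 Primitive cells (14.8%, 9.64 to 21.4) against 374 others (26.6%, 24.3 to 29.0), so both were found in a smaller share of P6 Primitive cells. Over all annotated long non-coding RNAs the P6 median ratio was 0.428, with 56 of 88 at least 1.5-fold lower and 3 higher, and at P15 it was 0.407, with 14 of 24 lower and 3 higher. Protein-coding genes had medians of 0.807 and 0.957. The mitochondrial genome, a common sign of damaged cells, made up a median of 113 UMIs per 10000 in P6 Primitive cells (0 to 292). This was above the medians of 7 other clusters (77.1 to 97.3) and below that of Capillary cells (200). At P15 it was 128, again above 7 clusters (70.97 to 87.8) and below Capillary cells (138).

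**Figure D2:**
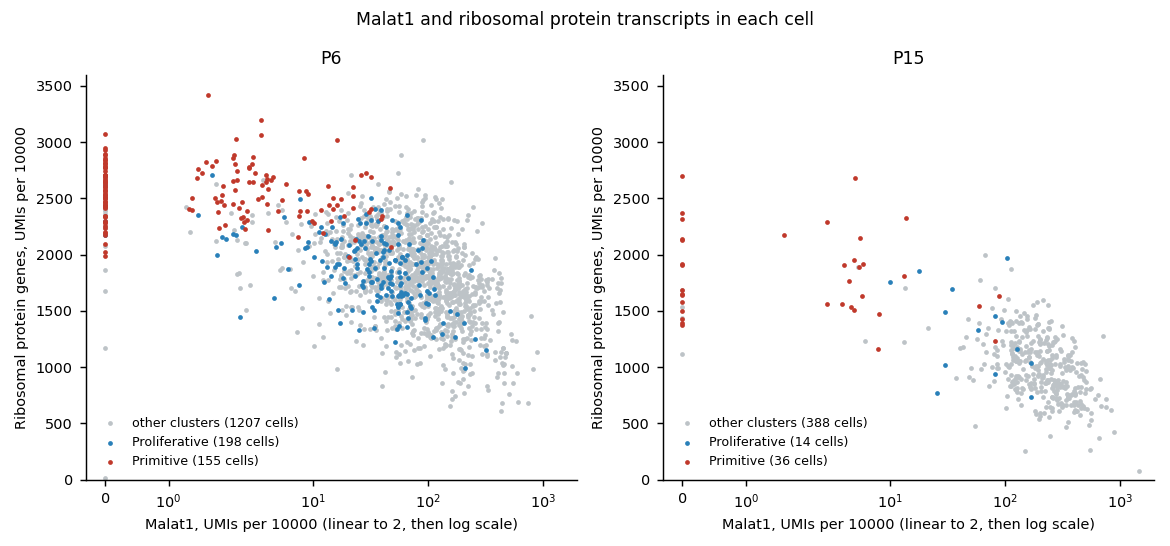
Each point is 1 labelled cell at P6 (left) or P15 (right), placed by its Malat1 level (horizontal, UMIs per 10000, linear to 2 and then a log scale) and its summed ribosomal protein genes (vertical, UMIs per 10000). Primitive cells (red) gather at the upper left, low in Malat1 with a median of 1.85 at P6 and high in ribosomal protein transcripts with a median of 2531, while Proliferative cells (blue) lie among the rest.

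Ribosomal protein transcripts were the counterpart and made up a larger share of Primitive cells than of any other cluster. At P6 they summed to 253000 CPM against 188303 (ratio 1.34, 1.34 to 1.35), and 83 of 83 compared genes were above 1, though only 10 passed 1.5-fold on plain totals and 74 with TMM factors. Per cell they ran from 1977 through a median of 2531 to 3419 UMIs per 10000, and the highest median elsewhere was 2050 in Cap-Venous cells. Only 21 of 1405 other cells reached the Primitive median, 11 of them Cap-Venous and 8 Stalk. After thinning to 3000 UMIs the medians were 766 in Primitive cells and at most 619 elsewhere.

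At P15 the excess was larger, at 181928 against 106607 CPM (ratio 1.71, 1.68 to 1.73), with 78 of 79 genes above 1 and 66 past 1.5-fold, beside 12.8% of all 1998 compared P15 genes. Rps10 stood at 2.23 (1.86 to 2.65), Rps12 at 2.22 (1.83 to 2.67) and Rps25 at 2.16 (1.85 to 2.51), each a component of the small subunit. Of the 6 highest P15 ratios, 5 were processed pseudogenes of such proteins, led by Rpl39-ps at 3.43 (2.67 to 4.35). Reads of these copies can be split with their parent genes, so their own levels are uncertain.

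Programmes of growth also summed to more at P6. Of 22 compared genes for ribosome assembly and nucleolus 9 were at least 1.5-fold higher and none lower, with a median of 1.40 (15 higher with TMM factors), led by Srm, which makes spermidine (2.02, 1.69 to 2.39), Nhp2 (1.99, 1.75 to 2.25) and Nop10 (1.91, 1.75 to 2.09), both of the box H/ACA particle that modifies ribosomal RNA. Among 75 nuclear genes of oxidative phosphorylation 23 were higher and 1 lower, with a median of 1.30, and with TMM factors 45 were higher and none lower. These included the ATP synthase subunit Atp5g1 (1.85, 1.69 to 2.04) and the cytochrome oxidase subunit Cox7b (1.81, 1.65 to 1.97), whereas the 8 compared genes of the mitochondrial genome had a median of 0.983 with none past 1.5-fold either way, and a median of 1.20 with TMM factors. Per cell the nuclear genes of this list had a median of 363 UMIs per 10000 in Primitive cells (247 to 513), above the 225 to 274 of the other clusters. Against Proliferative cells alone the sums differed less. The ratio was 1.08 (1.04 to 1.12) for ribosome assembly and nucleolus and 1.27 (1.25 to 1.29) for nuclear oxidative phosphorylation.

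Chromatin and nucleotide genes followed the same direction against all other labelled cells. In the list of high-mobility group, histone variant and growth-linked genes 10 of 21 were at least 1.5-fold higher and none lower (16 higher with TMM factors). Dut, which keeps uracil out of DNA, stood at 2.24 (1.92 to 2.62), Ranbp1, a regulator of the Ran GTPase, at 2.04 (1.88 to 2.20), and Tuba1b, an alpha-tubulin, at 1.997 (1.89 to 2.11). The serine, glycine and folate list had 6 of 10 higher and 1 lower, with Psat1, the second enzyme of serine synthesis, at 2.10 (1.57 to 2.77). Slc1a4, a carrier that brings in serine and alanine, was the lower one, at 0.396 (0.280 to 0.545). Proliferative cells held more of both lists than Primitive cells. Against them the summed ratio was 0.847 (0.831 to 0.863) for the chromatin list and 0.827 (0.757 to 0.903) for the serine list.

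Glycolysis genes were mixed between enzymes and glucose entry. Gapdh stood at 1.57 (1.49 to 1.66), Tpi1 at 1.56 (1.38 to 1.76) and Pgk1 at 1.69 (1.18 to 2.35). Slc2a1, which encodes the GLUT1 carrier of barrier endothelium, stood at 0.529 (0.483 to 0.579), 543 against 1025 CPM. Over the list 3 of 12 were higher and 1 lower, or 7 and 1 with TMM factors. Against Proliferative cells alone its summed ratio was 1.12 (1.09 to 1.16). Of 19 chaperones 18 were above 1, with a median of 1.28 beside 0.820 for all genes. Only 2 were at least 1.5-fold higher (10 with TMM factors), of which Hspe1, the mitochondrial co-chaperonin, reached 2.02 (1.84 to 2.23). Against Proliferative cells alone the chaperone list stood at 1.06 (1.03 to 1.09).

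The actin and calcium-binding genes were mixed. Tmsb4x and Tmsb10, the thymosins that hold monomeric actin, both had a ratio of 1.41, and Pfn1, profilin, 1.61 (1.55 to 1.67). Actb, cytoplasmic beta-actin, was at 0.547 (0.534 to 0.561), and Rhob and Wasf2 at 0.541 (0.463 to 0.629) and 0.451 (0.351 to 0.572). Tmsb4x per cell ran from 88.9 through 246 to 400 UMIs per 10000, against medians of 102 to 194 elsewhere. Within the galectin, S100, annexin and thymosin list 6 of 18 were higher and 1 lower, and S100a10 (2.14, 1.83 to 2.50) and S100a11 (2.04, 1.88 to 2.20) accompanied S100a6. Among the GTPases of migration Cdc42 had a ratio of 1.10 (1.02 to 1.18) and Rhoa 0.978 (0.874 to 1.09), the latter above 1 with TMM factors.

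The ratio of a gene in Primitive cells varied with the length of its transcript. For protein-coding genes split into 4 groups of equal size by longest annotated transcript, the P6 medians were 1.09 in the shortest group (348 to 1969 bases), then 0.881, 0.753 and 0.531 in the longest (4560 to 40378 bases). In that longest group 67.5% of genes were at least 1.5-fold lower and 1.08% higher, against 10.95% and 12.03% in the shortest. The P15 medians descended in the same order, 1.17, 0.997, 0.906 and 0.683. Ribosomal protein and oxidative phosphorylation genes are short, and many receptor and matrix genes are long, so length and function were not separated here. This split was made after the values were seen.

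**Figure D3:**
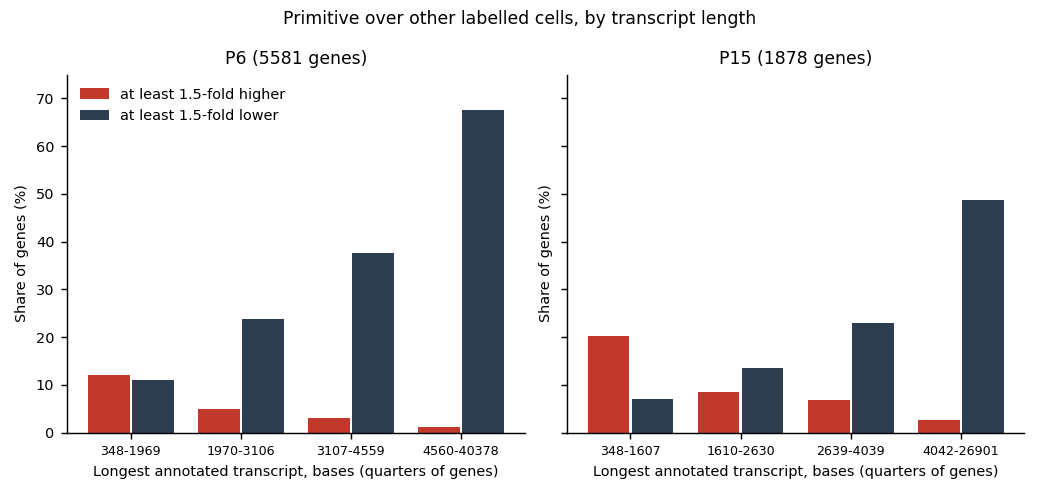
Share of protein-coding genes at least 1.5-fold higher (red) or lower (dark) in Primitive than in other labelled cells. Genes are in 4 groups of transcript length at P6 (left) and P15 (right). The share of lower genes rises from 10.95% in the shortest group to 67.5% in the longest at P6, and from 7.02% to 48.7% at P15. The share of higher genes falls from 12.03% to 1.08% at P6, and from 20.2% to 2.55% at P15.

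A comparison with other cells that were also low in Malat1 gave smaller differences for most markers and lists named below. Actb, however, differed more than it did against all other labelled cells. It was chosen after the values were seen and took the 136 other P6 cells at or below the 90th percentile of the Primitive cells, 17.1 UMIs per 10000, of which 50 were Stalk and 43 Proliferative. Against them 8 of 1529 genes with 200 UMIs were at least 1.5-fold higher in Primitive cells and 81 lower. Lgals1 stood at 1.37, Phgdh at 1.42, Mif at 1.31 and ribosomal protein genes at 1.22, while the G2 and mitosis list stood at 0.763. Oxidative phosphorylation genes stood at 1.14, pan-endothelial genes at 0.786, barrier genes at 0.845, venous genes at 0.864, Notch genes at 0.595 and arterial genes at 0.487. Of these cells 93 lay outside the Proliferative cluster, and 50 of those were Stalk cells. Against the 93, 24 of 1245 genes were higher and 70 lower, and the G2 and mitosis list stood at 1.40. Ube2c (2.19, 1.72 to 2.81), Pclaf (2.16, 1.74 to 2.71) and Cdk1 (2.01, 1.57 to 2.59) led the higher ones. Lowest were Pam (0.105, 0.0690 to 0.155), Slc39a1 (0.138, 0.104 to 0.181), Abhd2 (0.145, 0.118 to 0.178) and Actb (0.183, 0.178 to 0.188). Kdr (0.539, 0.428 to 0.677), Flt1 (0.577, 0.483 to 0.690) and Cldn5 (0.654, 0.620 to 0.691) were among the lower ones as well. Lgals1 then stood at 1.16. Only 8 other P15 cells were as low in Malat1, too few for the same comparison.

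Primitive cells held replication and mitosis transcripts at P6 at a level between Proliferative cells and all other clusters. S phase genes, such as those for the MCM helicase and nucleotide synthesis, summed to 2562 CPM, against 1766 in all other cells (1.45, 1.39 to 1.51) and 3751 in Proliferative cells (0.683, 0.652 to 0.716). Of 33 compared members 15 were at least 1.5-fold higher and 2 lower than in all other cells. Gins2, a subunit of the replicative helicase, stood at 2.23 (1.59 to 3.07), and Tipin, of the fork protection complex, at 2.01 (1.70 to 2.37). Tyms and Pcna stood at 1.81 (1.52 to 2.14) and 1.78 (1.499 to 2.11).

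The G2 and mitosis genes were mixed. Over 30 compared genes 9 were higher and 7 lower, with a median of 1.24, or 15 and 4 with TMM factors. Those higher included the small Cdk-binding protein Cks1b at 325 against 145 CPM (2.24, 1.97 to 2.54), Cdk1, the mitotic kinase, at 1.98 (1.73 to 2.26), and Birc5, survivin, at 2.03 (1.76 to 2.34). Kif20b, a kinesin of cytokinesis, stood at 0.438 (0.207 to 0.821) and Gas2l3, which links actin and microtubules, at 0.390 (0.239 to 0.602). Mki67, the coat protein of mitotic chromosomes, gave 22 UMIs and 0.656 (0.405 to 1.01), and Top2a 0.785 (0.643 to 0.9503). The rest includes the Proliferative cells. By cluster Mki67 was at 23.4 CPM in Primitive, 122 in Proliferative and 55.5 in Capillary cells, and at 4.79 to 18.8 in the other clusters.

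Per cell, S phase transcripts ran from 1.45 through a median of 21.3 to 64.1 UMIs per 10000 in Primitive cells, against a median of 30.1 in Proliferative cells and at most 10.3 elsewhere. G2 and mitosis transcripts ran from 0 through 21.4 to 141, against 75.1 and at most 7.68. Of 155 Primitive cells 54 reached the Proliferative median for S phase and 18 for G2 and mitosis, and 6 held no mitotic UMI. Thinned to 3000 UMIs the medians were 6 and 7 UMIs in Primitive cells, and 9 and 22 in Proliferative ones. Across the 155 cells the 2 sums went together only weakly (Spearman rho 0.140 over cells of 1 library, which share depth), and Lgals1 bore almost no relation to S phase (rho 0.0312).

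Among 14 compared cyclins, CDKs and CDK inhibitors 4 were at least 1.5-fold higher and 4 lower (8 and 4 with TMM factors). The lower ones were 3 inhibitors of CDKs and Ccnd2, a D cyclin. Cdkn1c, which encodes p57, stood at 4.25 against 38.6 CPM (0.110, 0.0298 to 0.284), Cdkn1b, for p27, at 0.319 (0.177 to 0.532) and Cdkn1a, for p21, at 0.370 (0.281 to 0.480). Ccnd2 stood at 0.209 (0.111 to 0.361), while Ccnd1 had 0.857 (0.666 to 1.09), above 1 with TMM factors. The low levels of Ccnd2 and Cdkn1c were shared with other clusters. Ccnd2 was at 13.8 CPM in Primitive and 13.7 in Proliferative cells, and Cdkn1c at 9.56 to 10.2 in Capillary, Tip and Proliferative cells, whereas Arterial cells held 364 and 289. Cdk4, the partner of D cyclins, was at 458 against 288 CPM.

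**Figure D4:**
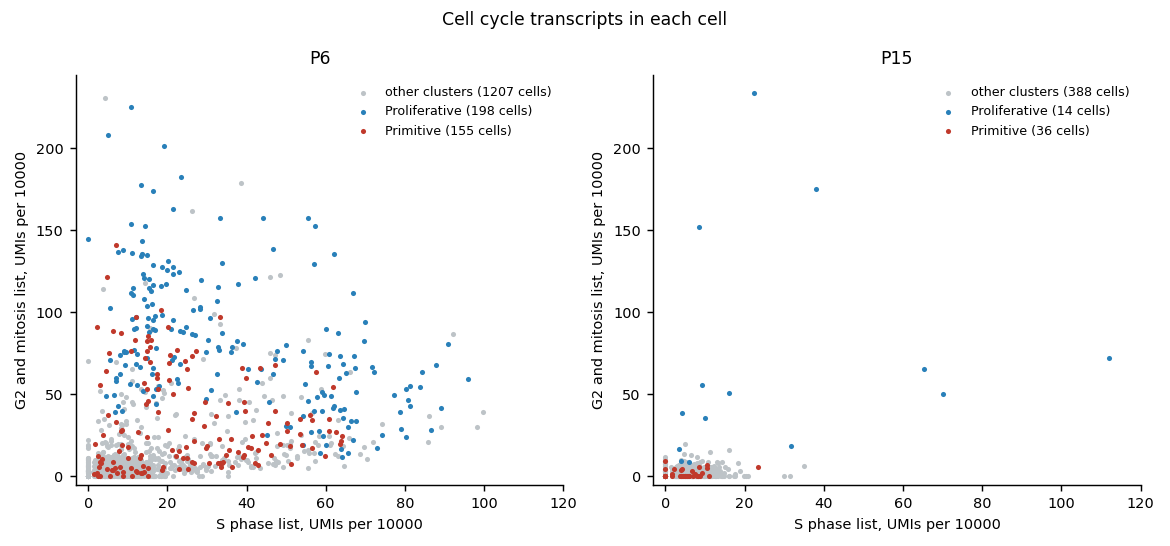
Each point is 1 labelled cell at P6 (left) or P15 (right), placed by its summed S phase genes (horizontal) and its summed G2 and mitosis genes (vertical), both in UMIs per 10000. Primitive cells (red) spread from 0 to 141 on the mitosis axis at P6 below most Proliferative cells (blue, median 75.1), and at P15 lie near the origin with a median of 0.

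Genes of endothelial identity and specialisation summed to less in P6 Primitive cells than in the rest, in most lists. Of 24 pan-endothelial genes 17 were at least 1.5-fold lower and none higher, with a median of 0.608 beside 0.820 for all genes. With TMM factors only 6 of the 24 were that much lower, near the 22.9% of all genes, so the count depended on the scaling. Cldn5, the claudin of tight junctions, stood at 2764 against 5663 CPM (0.488, 0.469 to 0.508), Esam, a junction adhesion protein, at 0.613 (0.565 to 0.663), and Kdr, the main VEGF receptor, at 0.385 (0.323 to 0.455). Cldn5 had a UMI in 155 of 155 cells, Ramp2 in 150 and Egfl7 in 147. No cell type that lacks these genes was labelled in the library, so the share that free RNA gives was not measured. Per cell the list summed to a median of 99.2 UMIs per 10000 (40.8 to 227), against 135 to 237 in the other clusters, so the ranges overlapped.

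Arterial genes were the lowest of the vessel-type lists. All 11 compared members were at least 1.5-fold lower, with a summed ratio of 0.198 (0.173 to 0.225). Gja4, connexin 37, stood at 26.5 against 296 CPM (0.0897, 0.0579 to 0.133), and Cxcl12, the chemokine of arteries, at 0.0701 (0.0256 to 0.153). Sox17, an arterial transcription factor, stood at 0.286 (0.221 to 0.364). The 6 compared venous genes were lower as well, at 0.506 (0.473 to 0.541), with Apoe at 0.3804 (0.311 to 0.462) and Nr2f2, the venous nuclear receptor, at 0.491 (0.345 to 0.680). Neither vessel type was marked in these cells.

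Tip genes were lower as a list, with 5 of 10 compared genes at least 1.5-fold lower and 1 higher (3 and 2 with TMM factors) and a summed ratio of 0.674 (0.641 to 0.709). The higher one was Kcne3, a potassium channel subunit, at 92.4 against 45.9 CPM (2.01, 1.58 to 2.55), and Apln, the apelin ligand, stood at 1.34 (1.17 to 1.53). Esm1, a proteoglycan of tip cells, stood at 0.295 (0.140 to 0.550) and Cxcr4 at 0.184 (0.0733 to 0.382). The low level of Esm1 was shared with other clusters. It was at 10.6 CPM in Primitive, 11.4 in Stalk and 4.13 in Cap-Venous cells, against 189 in Tip cells. Against Proliferative cells alone the list stood at 0.662 (0.625 to 0.701).

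Receptors and targets of the main signals gave 0 genes at least 1.5-fold higher in the VEGF, Notch, BMP, TGF and flow lists. In the VEGF receptor list 4 of 5 were at least 1.5-fold lower, where Flt1 had 0.403 (0.353 to 0.459), Nrp1 0.392 (0.309 to 0.491), and Flt4, the lymphatic-type receptor, 0.879 (0.622 to 1.21), above 1 with TMM factors. All 7 compared Notch genes were lower (summed 0.376, 0.337 to 0.419), among them the ligands Jag1 at 0.230 (0.167 to 0.310) and Dll4 at 0.312 (0.223 to 0.426) and the target Hey1 at 0.243 (0.110 to 0.467). By cluster Hey1 was at 9.56 CPM in Primitive, 3.58 in Proliferative and 10.7 in Stalk cells, against 339 in Arterial and 185 in Cap-Arterial cells. Against Proliferative cells alone the Notch list stood at 0.550 (0.486 to 0.620). Of the BMP and TGF lists 4 of 6 and 4 of 7 were lower (3 and 3 with TMM factors), with Id2 at 0.360 (0.2505 to 0.502), Id1 at 0.462 (0.399 to 0.534) and Tgfb2 at 0.217 (0.112 to 0.383). Flow-responsive genes showed 5 of 5 lower, and Klf2, the shear-induced factor, stood at 0.420 (0.366 to 0.479).

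Barrier and matrix genes belonged to the same group. Among 24 barrier carriers and Wnt targets 23 were at least 1.5-fold lower, from Slco1a4, an organic anion carrier, at 3 UMIs and 0.0869 (0.0178 to 0.256) to Bsg, which escorts monocarboxylate carriers, at 0.533 (0.509 to 0.558). Only Igfbp7 missed that size, at 0.827 (0.802 to 0.852). In basement membrane genes 10 of 11 were lower (6 with TMM factors), with Col4a1 at 0.496 (0.452 to 0.544) and Lama4 at 0.479 (0.391 to 0.583). Fenestral and caveolar genes were close to the rest, with 1 of 7 lower and a summed ratio of 0.913 (0.854 to 0.975) that became 1.12 with TMM factors.

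Immediate early genes, which cells switch on within minutes of a stimulus or of dissociation, were low too. All 11 compared were at least 1.5-fold lower at P6, including Fos at 6.37 against 76.2 CPM (0.0836, 0.0306 to 0.183), Klf6 at 0.138 (0.0658 to 0.255) and Jun at 0.277 (0.196 to 0.3803). The same held for 9 of 9 at P15, where Jun stood at 0.135 (0.0645 to 0.249) and the list at 0.312 (0.265 to 0.364). The median per cell was 3.74 UMIs per 10000 at P6 and 10.4 at P15, below every other cluster's median at both ages, which began at 6.72 and 29.6. MHC class I genes had 7 of 10 lower at P6, whereas interferon-induced genes, 5 of 7 lower, had a summed ratio of 0.848 that became 1.04 with TMM factors.

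**Figure D5:**
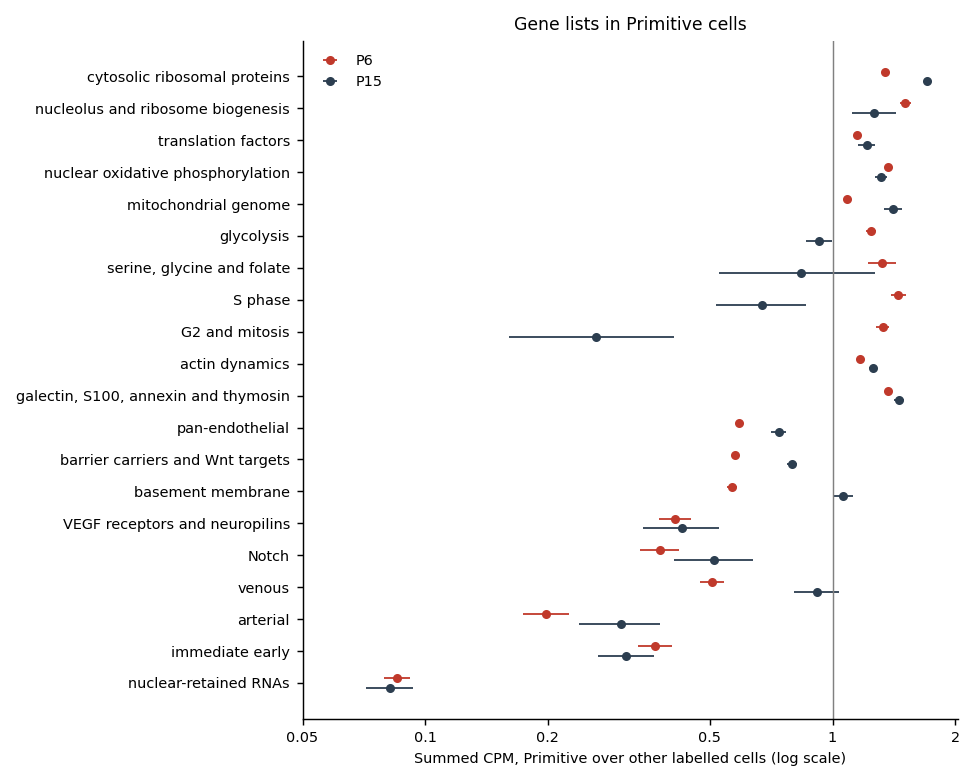
Ratio of summed CPM of Primitive to other labelled cells for 20 gene lists (log scale), at P6 (red) and P15 (dark), with 95% counting intervals; the grey line marks 1. Ribosomal protein genes lie to the right at both ages (1.34 and 1.71), nuclear-retained RNAs far to the left (0.0854 and 0.0819), and the S phase and mitosis lists change side between P6 and P15. Most UMIs of the nuclear-retained list are of Malat1.

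Proliferative cells were the closest cluster at P6, and Primitive cells held fewer mitotic transcripts than they did. The log profiles of the 2 correlated at r = 0.934 across 5871 genes of 1 library, followed by Stalk at 0.891 and Cap-Venous at 0.889. At P15, across 1998 genes, Cap-Venous came first at 0.871, then Proliferative at 0.864 and Tip at 0.856. Of 2134 genes with 200 UMIs in these 2 clusters together, 53 (2.48%) were at least 1.5-fold higher in Primitive cells and 330 (15.5%) lower. Among such genes the lowest included Cenpe, a kinetochore motor, at 0.160 (0.0945 to 0.256), Cenpf at 0.166 (0.102 to 0.257) and Mki67 at 0.192 (0.118 to 0.298), beside Malat1 at 0.159 (0.147 to 0.172) and Arl5c at 0.142 (0.0931 to 0.209).

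Those above Proliferative cells formed a short and different set. Lgals1 led it at 2.34 (1.83 to 2.99), with Ndufb4, a complex I subunit, at 1.83 (1.53 to 2.19) and S100a11 at 1.77 (1.60 to 1.96). The other 5 of the 8 highest were the predicted genes Gm11970, Gm11273, Gm3362, Gm16200 and Gm5781, whose near-identical copies make them uncertain. The minimum in the 2 clusters together was added after the values were seen. By the rule without it the 8 highest were Gm10132, Hey1, Uchl1, Gchfr, Kcne3, Lgals1, Ece2 and Cd24a, where Hey1 and Cd24a rested on 9 and 5 Primitive UMIs and had intervals that spanned 1. Uchl1, a deubiquitinase, stood at 2.57 (1.53 to 4.36) and Kcne3 at 2.34 (1.68 to 3.28), and the 8 lowest, Aqp1, Mgp, Nebl, Milr1, Gm37024, Hdac4, Gm37474 and Gm44187, held 4 Primitive UMIs or fewer each.

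Across all 9 clusters Primitive cells lay at an extreme more often than the others. For 780 genes with at least 2000 UMIs at P6 they were the highest cluster in 332 and the lowest in 163, against at most 108 highest for another cluster. Arterial cells were the lowest in 250. At P15 they were the highest in 75 of 141 genes and the lowest in 12. Genes are not independent replicates, and these counts follow the scaling.

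Primitive cells were not uniform among themselves at P6. Spread beyond counting, as variance over the Poisson expectation given each cell's total, had a median of 1.21 over 745 genes with at least 200 UMIs in them. It was widest for Gm26917 (115), then Actb (23.3), Malat1 (14.9), Bsg (13.8) and Tmsb4x (12.1). B2m, Slc38a5, which carries glutamine, and mt-Nd1 followed at 9.03, 7.40 and 6.74. Barrier genes ran from 40.8 to 362 UMIs per 10000 among the 155 cells, with a median of 133, and cells with more of them tended to hold fewer mitotic transcripts (rho -0.433, with total UMIs and library shared).

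The P15 Primitive cells had the low nuclear RNA and high ribosomal share given above, but few cell cycle transcripts, a trait shared with other clusters outside the Proliferative one. Of 1998 compared genes 255 (12.8%) were at least 1.5-fold higher and 450 (22.5%) lower, or 311 (15.6%) and 415 (20.8%) with TMM factors, with a median ratio of 0.977. S phase genes summed to 533 against 792 CPM (0.673, 0.518 to 0.860), and G2 and mitosis genes to 161 against 613 (0.263, 0.160 to 0.408). The rest includes 14 Proliferative cells. Without them the mitosis ratio was 0.626, and on the 15 cells thinned to 3000 UMIs the S phase ratio was 0.924. Of the 36 cells 23 held no G2 or mitosis UMI, and 1 reached the Proliferative median for S phase. Their S phase median was 4.97 UMIs per 10000, beside 4.09 in Capillary and 6.67 in Cap-Arterial cells. For G2 and mitosis the median was 0, as in Arterial and Cap-Arterial cells, beside 2.07 in Cap-Venous and 2.85 in Tip cells.

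Endothelial lists stood nearer to the rest at P15 than the P6 values did, although the 2 ages cannot be compared with a test. Pan-endothelial genes had 10 of 22 at least 1.5-fold lower (0.739, 0.708 to 0.770), with Cldn5 at 0.733 (0.685 to 0.783) and Flt1 at 0.337 (0.240 to 0.461). Barrier genes had 13 of 24 lower, and Igfbp7 stood at 1.20 (1.12 to 1.28). Venous and basement membrane lists were close to 1, at 0.916 (0.805 to 1.04) and 1.06 (1.01 to 1.12), where the latter was carried by Sparc at 1.19 (1.12 to 1.26) while Fn1 stood at 0.531 (0.390 to 0.708). Arterial and Notch genes were low, with 6 of 7 and 4 of 4 lower, and Jag1 gave 2 UMIs and 0.109 (0.0131 to 0.397).

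Mitochondrial genes summed to more than the rest at P15 in both genomes. The mitochondrial genome had 2 of 8 at least 1.5-fold higher and a summed ratio of 1.41 (1.33 to 1.48), with mt-Nd3 at 2.02 (1.35 to 2.92), and nuclear oxidative phosphorylation genes summed to 1.31 (1.27 to 1.36). Of the latter 10 of 69 were higher (18 with TMM factors), a share near the 12.8% (15.6%) of all P15 genes, with Ndufb11 at 1.98 (1.48 to 2.59). Glycolysis genes did not share this, at 0.929 (0.862 to 0.9996) on plain totals and 1.02 on totals without ribosomal and mitochondrial genes. Apod, apolipoprotein D, was the 1 gene among the 6 highest that was not a ribosomal pseudogene. It gave 115 UMIs in 26 of 36 cells, 928 CPM (766 to 1114), beside 975 (863 to 1097) in Tip cells and 426 (310 to 570) in Capillary cells, the next of the clusters with more than 2 cells.

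The 6 lowest ratios at P15 were Gm43581, Neat1, Adamts1, Gja4, Peli1 and Ogt. Gm43581 gave 0 UMIs and the other 5 gave 2 or fewer each, from 131 to 254 CPM in the rest. Adamts1, a matrix protease, stood at 0.0532 (0.00134 to 0.299) and Ogt, the enzyme that adds GlcNAc to nuclear proteins, at 0.0636 (0.00768 to 0.231).

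Most genes that were higher or lower at P6 lay on the same side at P15. The study integrated both libraries before clustering, so the shared label already selects P15 cells that resemble the P6 ones. Of the 356 genes higher at P6, 128 had enough UMIs at P15, and 112 of them (87.5%) were above 1 and 50 (39.1%) past 1.5-fold, against 47.2% and 12.8% of all. Of 583 measured genes that were lower at P6, 342 (58.7%) were lower at P15, against 22.5% of all. The ratios of the 2 ages correlated at Spearman rho 0.723 over 1990 genes, which are not independent. The 2 libraries hold different cells, and no control cells are shared. Because the cells were clustered together, the likeness of the ages describes the label and is not an independent check.

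Within Primitive cells, set side by side over 846 genes, 5 of the 6 lowest P15 to P6 ratios were of replication and mitosis genes, and the other was Plvap. Pclaf, a clamp-binding protein of replication, gave 355 UMIs at P6 and 0 at P15, and Birc5 gave 243 and 0, where the 36 cells allow up to 24.2 CPM. Ube2c went from 299 UMIs to 1 (0.0254, 0.000642 to 0.143), while in all other cells it went from 127 to 21.8 CPM (0.172, 0.124 to 0.233). Cks1b and Cdk1 gave 2 UMIs each at P15. Plvap, the protein of fenestral diaphragms, had 0.0650 (0.00782 to 0.237) in Primitive and 0.0572 (0.0376 to 0.0834) in other cells, so that difference between the libraries was common to both.

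The 6 highest P15 to P6 ratios were those of genes for plasma membrane and secreted proteins and of Klf2. Bsg stood at 8.23 (7.74 to 8.75) in Primitive and 5.44 (5.36 to 5.52) in other cells. Prnp, the prion protein, had 7.60 (5.98 to 9.66) against 2.99 (2.84 to 3.15), Selenop, a selenium carrier, 7.57 (6.23 to 9.19) against 2.85 (2.74 to 2.98), and Spock2, a matrix proteoglycan, 7.12 (5.50 to 9.22) against 2.14 (2.05 to 2.24). For these 4 the intervals of Primitive and other cells did not overlap. Ly6c1 and Klf2 had 4.77 (3.76 to 6.01) and 4.74 (3.82 to 5.86), with 5.54 (5.25 to 5.84) and 3.29 (3.15 to 3.43) in the other cells. Age and library cannot be told apart in any of these values.

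Markers of other retinal cells were scarce at P6. Lists for mural cells, photoreceptors and erythroid cells gave 26 to 29 UMIs each among the 155 cells, at 27.6 to 30.8 CPM against 21.7 to 29.9 in the rest, and the 5 fibroblast and 4 lymphatic markers in the file were at 0. Lists for other retinal neurons, retinal progenitors, microglia and pigment cells gave 1 or 2 UMIs each. Astrocyte and Mueller glia genes stood at 860 against 837, of which Dbi, an acyl-CoA-binding protein that endothelium makes too, gave 555 of 810 UMIs, with 3 markers at 0. At P15 the photoreceptor list stood out, at 122 UMIs and 985 against 94.7 CPM, with 1 of 10 markers at 0. These UMIs came from 9 cells, of which 2 held 55 and 52. Without those 2 cells the P15 ratios were 0.0661 for Malat1 and 1.74 for ribosomal protein genes, so both were at least as far from 1.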

How the data were processed

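Endothelial cells of P6 and P15 C57BL/6 mouse retinas were captured on the 10x droplet platform, 1 library per age. The authors deposited raw UMI counts per gene and cell for each library. The submitters' processing notes name Seurat 3.0 and mm10, and the aligner is not given in the sources used here. Per the study's methods, cells with high mitochondrial shares, extreme gene numbers or Hbb-bt, Neurod1 or Cd63 transcripts were removed before clustering, but the deposited tables hold 1984 and 2141 barcodes, more than were labelled at P6. Cluster labels came from the study's source data, joined by barcode. The copy used here was shortened, so only 438 P15 barcodes had a label. Unlabelled cells entered no comparison, except in 1 alternative at P15 that gave them the commonest label among their 15 nearest labelled neighbours. It labelled every such barcode without a filter, including any that the study had removed before clustering.

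UMIs were summed over Primitive and over all other labelled cells and divided by the summed total of all genes with a symbol. Rows with no symbol held 0.0145% and 0.0146% of UMIs. Ratios carry conditional exact binomial 95% intervals, levels exact Poisson and shares Clopper-Pearson intervals, and 3 counts were taken as the floor of a count of 0. With 1 library per age no test was made. Genes needed 200 UMIs over the labelled cells, and 1.5-fold was used to count them. No doublet caller was run. An alternative dropped cells that showed Xist together with a Y-linked transcript, or that exceeded 3 times the library's median depth. Annotation and promoters were from Ensembl gene models and RefSeq on GRCm38. Python 3.11.15 (numpy 2.4.6, scipy 1.17.1, pandas 2.3.3, matplotlib 3.10.9) and R 4.3.3 with edgeR 4.0.16, for TMM factors only, were used, and the ratio step was tested on simulated data. The members and gene lists were chosen with earlier results of these data known. Named genes were the 12 highest and 10 lowest ratios at P6, the 6 highest and 6 lowest at P15, the 8 highest and 8 lowest against Proliferative cells, the 6 highest and 6 lowest P15 to P6 ratios, the 8 most overdispersed genes, the markers and genes the study names, and up to 4 most abundant and 4 past 1.5-fold per list.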

Additional observations from a re-analysis of the deposited data

How the results depend on the processing

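No paired analysis was possible because each age is 1 library. The values below are in the order named, and where an alternative moved a value the cause was not tested. Ribosomal protein genes stayed above 1 and Malat1 below 1 under every alternative run. With TMM factors 1068 genes were higher at P6, Lgals1 stood at 3.74, Malat1 at 0.0987, Mif at 3.01 and Rac1 at 1.67, ribosomal protein genes at 1.65 (P15: 1.77), G2 and mitosis at 1.63 and S phase at 1.78, and fenestral (1.12) and interferon-induced genes (1.04) crossed 1. With the study's cell filter Malat1, Mif, ribosomal protein genes, G2 and mitosis and S phase stood at 0.0533, 2.77, 1.38, 1.63 and 1.58 (P15 ribosomal: 1.74). Without Proliferative cells in the comparison Malat1, Mif, Phgdh, G2 and mitosis and S phase stood at 0.0721, 2.85, 3.803, 3.10 and 1.98 (P15: ribosomal 1.73, mitosis 0.626). With equal weight per cell Malat1, Mif, ribosomal protein genes, G2 and mitosis and S phase stood at 0.0514, 2.88, 1.41, 1.65 and 1.58 (P15: Malat1 0.0396, ribosomal 1.79). On totals without ribosomal and mitochondrial genes 605 genes were higher at P6, and Malat1, Mif, ribosomal protein genes, G2 and mitosis and S phase stood at 0.0877, 2.67, 1.46, 1.44 and 1.58 (P15: ribosomal 1.87, glycolysis 1.02). Thinned to 3000 UMIs, 1011 genes were lower at P6 and 190 at P15, with fewer genes measured, and Lgals1, Malat1, Mif, ribosomal protein genes and G2 and mitosis stood at 3.67, 0.0646, 2.66, 1.38 and 1.57 (P15: Mif 0.718, ribosomal 1.77, S phase 0.924, migration GTPases 0.943). Without possible doublets Malat1, ribosomal protein genes and G2 and mitosis stood at 0.0727, 1.35 and 1.39. A minimum of 50 UMIs gave 556 higher and 4235 lower genes at P6 and 627 and 2112 at P15, a minimum of 500 gave 223 and 807, and 146 and 126, and a ratio of 2 gave 42 and 1124, and 44 and 233. With neighbour labels at P15 1915 genes of 6741 were lower, Malat1 stood at 0.365, ribosomal protein genes at 1.37, basement membrane at 0.934 and glycolysis at 1.05.

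Of the 3 alternatives chosen after seeing the data, the low-Malat1 comparison at P6 gave 8 higher and 81 lower genes, Lgals1 1.37, Malat1 0.838, Mif 1.31, Phgdh 1.42, Rac1 1.18, ribosomal protein genes 1.22, S phase 1.16 and, below 1, G2 and mitosis 0.763, actin 0.839, cyclins and CDKs 0.954, chromatin genes 0.989 and migration GTPases 0.982, with interferon-induced genes at 1.07. Without Proliferative cells it gave 24 and 70 genes, Lgals1 1.16, Malat1 0.890, Mif 1.36, Phgdh 1.47, ribosomal protein genes 1.22, G2 and mitosis 1.40, S phase 1.32, actin 0.750, migration GTPases 0.988 and flow-responsive genes 1.05. It had no value at P15. Without the 2 P15 cells with photoreceptor UMIs Malat1 stood at 0.0661 and ribosomal protein genes at 1.74. Of the values for further lists and for P15 Lgals1 and Phgdh, 372 stayed inside the main counting interval, 243 lay outside it and 14 crossed 1, each given above. A crossing of 1 was counted only where the main interval excluded 1. The headline values were the gene counts, Primitive shares, other marker and Malat1 ratios, and the S phase, mitosis and ribosomal lists. Of these 92 stayed inside their interval or, for gene counts, within 1.5-fold, and 84 moved further. The G2 and mitosis list in the low-Malat1 comparison was the 1 that crossed 1. With 36 P15 cells, a gene at 0 UMIs can be at up to 24.2 CPM, so low P15 genes were not resolved.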

Other observations

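Several other gene groups were compared in the same way. Translation factors had 3 of 56 genes at least 1.5-fold higher and 5 lower at P6 (17 and 2 with TMM factors), with Eif5a, which helps ribosomes through proline stretches, at 1.82 (1.71 to 1.92), Eif4a1 at 1.52 (1.44 to 1.61) and Eif4a2, its paralog, at 0.475 (0.373 to 0.598). At P15 8 of 32 were higher and 2 lower, with Eef1b2 at 2.05 (1.56 to 2.65). The proteasome had 27 of 36 genes above 1 at P6, with a summed ratio of 1.21 (1.18 to 1.24). Of the 36, 1 was at least 1.5-fold higher and none lower (10 higher with TMM factors). At P15 4 of 30 were higher, and Psmb4 stood past 1.5-fold at both ages, at 1.52 (1.35 to 1.71) and 1.62 (1.10 to 2.32). Cholesterol synthesis genes summed to 0.755 (0.669 to 0.850) of the rest at P6 and 1.04 (0.713 to 1.47) at P15. Of the receptors through which MIF acts, Cd74 stood at 0.295 (0.189 to 0.438) and Cxcr4 at 7 UMIs, while the MIF paralog Ddt had 1.36 (0.949 to 1.92). Imprinted growth genes had 3 of 5 lower at P6, with Igf1r at 0.331 (0.174 to 0.573).

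With deposited labels kept and every other barcode labelled by its 15 nearest labelled neighbours, 202 of 2141 P15 barcodes were in the Primitive cluster. As a check, each labelled cell was also compared with its own 15 nearest labelled neighbours. Primitive was the commonest neighbour label for 33 of the 36 labelled Primitive cells and for 12 cells that carry another label. These votes changed no deposited label.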
